A study of Rattus norvegicus with 24 samples.

Results

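The comparison described here set the left tibialis anterior muscle of 3 rats after 30 days of daily resistance training against the right, untrained tibialis anterior of the same 3 animals. It was chosen from the sample titles and the animal numbers of the library names, and it holds 6 of the 24 muscles of the series. The other 18 muscles came from animals trained for 2, 10 or 20 days. They enter the rescaling, the filter and the estimate of spread behind every SE and p-value of the model. They also serve as reference values and for the differences between time points. The design text names 4 animals per time point, of which 3 were analysed here. The animals were adult male Wistar rats, none of them genetically modified. All carried an implanted pulse generator whose electrodes lay in the left hind limb, so that the dorsiflexors contracted against the plantarflexors once a day, and both muscles were collected 1 h after the last bout. Each value therefore joins whatever 30 days of training had changed in the resting muscle with the acute response to 1 bout, and these cannot be told apart in this design. The right muscle is a control from the same body, not from an untrained animal. It shares the anaesthesia, the circulation and the time of day with the trained muscle, but not the incision and electrodes of the left hind limb. Effects of that local surgery cannot be told apart from those of training in this design.

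Loading of skeletal muscle is known to switch on immediate early genes, which encode transcription factors that are made within minutes and removed again, and chaperones that refold damaged sarcomere proteins. Over weeks, repeated contraction is known to shift fast fibres from myosin IIB towards myosin IIX and IIA, to add mitochondria and capillaries, and to remodel the collagen network around the fibres. The tibialis anterior of the rat is a fast muscle with few slow fibres.

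Poly-A RNA was sequenced from whole muscle pieces, and the values analysed are TPM-type values per Ensembl transcript, scaled for length and to 1 total per sample, which keep no sequencing depth, so the precision that depth gives is unknown. The values were rescaled between libraries by factors of 0.778 to 1.08 in the 6 muscles, and log2(value + 1) was tested with limma for 13452 transcripts, with animal as a term and Benjamini-Hochberg adjustment over all of them. A fold change on this scale understates the change of low transcripts. Skeletal muscle markers were abundant in all 6 libraries. The actin Acta1 stood between 23321 and 27167 in the contralateral and between 22658 and 27446 in the trained muscles, and 0 of 7 muscle fibre markers passed the test. The library of the contralateral muscle of animal 1 stood apart from the other control libraries. Messenger RNA encoded by mitochondria made up 43.7% of it, against 34.6% and 29.7% in the contralateral muscles of animals 2 and 3, and between 27.8% and 32.7% in the contralateral muscles of the other time points. Its summed erythroid markers were at 1145, against 526 and 491 in the other contralateral muscles. In the trained muscles the mitochondrial share was 39.9%, 43.0% and 43.9% in animals 1, 2 and 3, and the difference between the muscles did not pass a two-sided exact permutation test on the 3 pairs (p = 0.50, where the smallest p that 3 pairs allow is 0.25).

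After 30 days, 1041 of 13452 transcripts (7.74%), of 1005 genes, passed an adjusted p of 0.05. Of these, 635 were higher and 406 were lower in the trained muscle. The changes upwards were the larger: 35 transcripts rose and 9 fell by more than 2 on the log2 scale. The trained and contralateral muscles did not overlap in 987 of the 1041 transcripts, against 25.7% of all transcripts tested. The sign of the change was shared by 1040, 1041 and 1041 of them in animals 1, 2 and 3, and the median size of the change in these transcripts was 0.75, 0.78 and 0.80 on the log2 scale. These transcripts were chosen by the same values, so the lack of overlap and the shared sign follow largely from that choice. They are no separate support. The number called depended on having all 3 animals, and it was 574 without animal 1, 363 without animal 2 and 426 without animal 3. On the values as deposited, without rescaling, 562 transcripts passed, of which 267 were higher and 295 lower, and the median over all transcripts moved from -0.01 to -0.11.

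The largest rises were in transcription factors of the stress and immediate early response. Atf3, a factor of the integrated stress response, stood at 1.28, 2.94 and 1.58 in the contralateral muscles of animals 1, 2 and 3, and at 94.5, 230 and 34.7 in their trained muscles. Its log2 fold change over the 3 pairs was 5.02 ± 0.50 (adjusted p = 0.00015). Here and below, ± is the SE of the limma fit. Its spread is estimated over all 12 pairs and drawn towards a value common to all transcripts, so it is not the spread of the 3 pairs. Nr4a3, an orphan nuclear receptor induced by exercise, went from 1.06, 0.856 and 1.48 to 72.7, 66.9 and 60.1, a log2 fold change of 4.99 ± 0.26 (adjusted p = 6.3e-06). The spread between the trained muscles was wide for Atf3 and narrow for Nr4a3, and neither gene came near its contralateral range. Hspa1b, the inducible 70-kDa heat shock protein, rose from 3.94, 4.67 and 7.63 to 110, 150 and 71.0 (log2 4.10 ± 0.33). Otud1, a deubiquitinase, rose from 1.32, 2.22 and 1.69 to 36.9, 80.4 and 17.8 (log2 3.83 ± 0.47). Egr1, a zinc finger factor of the immediate early class, was at 1.97, 1.89 and 4.02 in the contralateral muscles and at 33.4, 63.5 and 49.1 in the trained muscles (log2 3.78 ± 0.30). For Atf3, Hspa1b, Otud1 and Egr1 the trained muscle of animal 2 held the highest value of the 3. The remaining 7 of the 12 largest rises were Ciart, Fos, Xirp1, Csrp3, Snai3, Hmox1 and Irs2, with log2 fold changes from 3.31 to 2.74. All 12 kept their call whichever animal was left out and on the values as deposited.

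**Figure D1:**
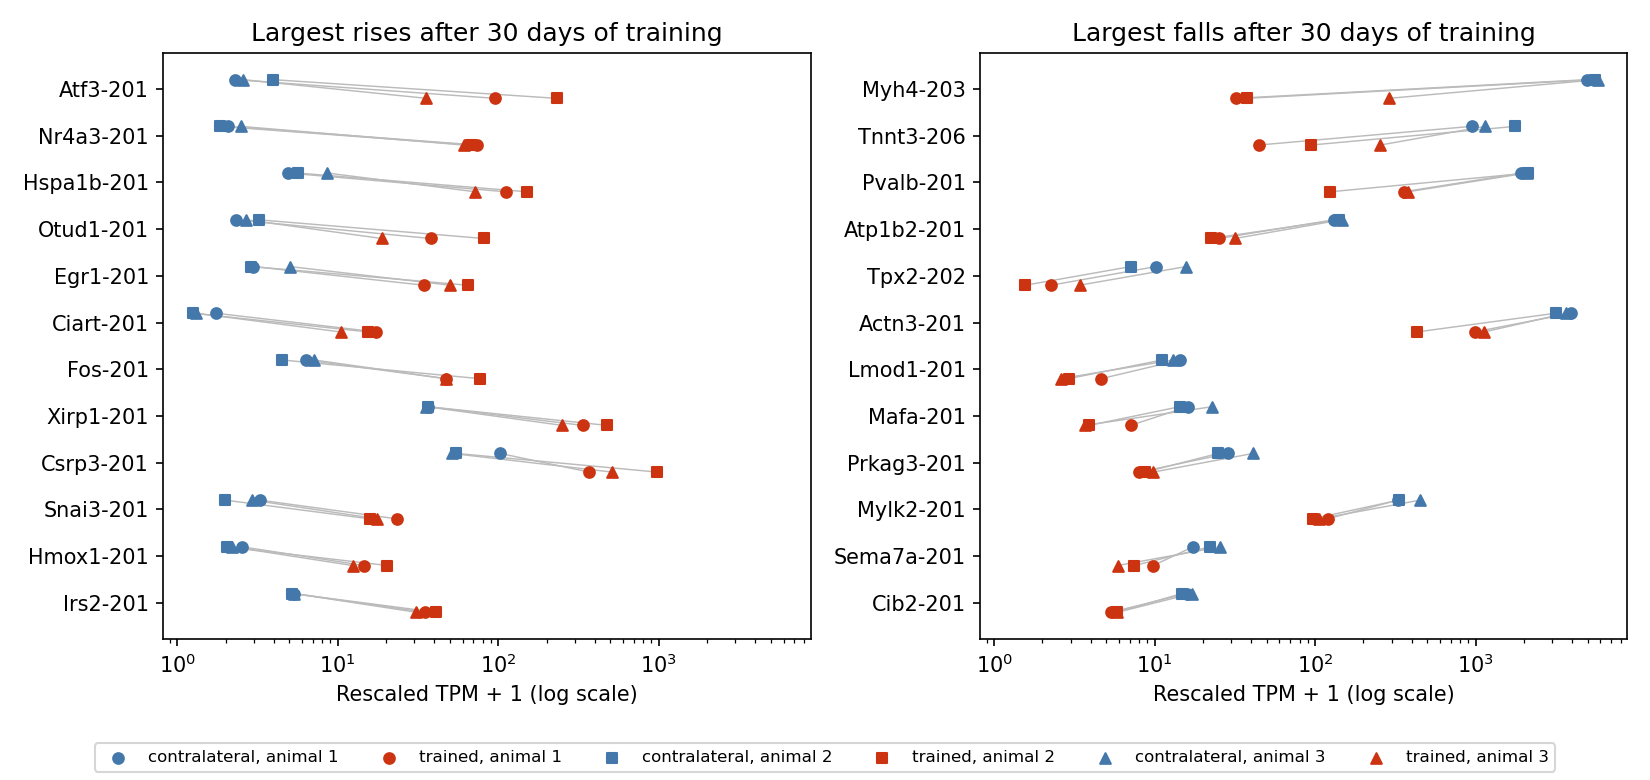
The 12 largest rises (left) and the 12 largest falls (right) after 30 days, by log2 fold change, in genes with a mean of at least 10 and no overlap between the muscles; the horizontal axes give rescaled TPM + 1 on a log scale. Blue symbols are contralateral and red symbols trained muscles, the symbol shape stands for the animal and grey lines join the muscles of an animal. By the choice of genes every trained muscle lies outside the contralateral range. The longest lines belong to Atf3 and Nr4a3 among the rises and Myh4 among the falls.

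Among 26 tested immediate early and stress-induced regulators, 15 rose, 0 fell and 11 did not pass, with a median log2 fold change of 1.27, beside -0.01 over the 11100 genes tested. Over all genes, taken with 1 transcript each, 5.25% were called higher and 3.20% lower. Fos, the partner of the Jun proteins in the AP-1 factor, rose from 5.31, 3.49 and 6.11 to 46.1, 75.6 and 46.2 (log2 3.24 ± 0.48). Junb rose with it, from 2.45, 3.61 and 8.35 to 23.4, 24.9 and 18.2 (log2 2.12 ± 0.37). The related Jun did not pass: it was at 46.5, 51.5 and 53.7 in the contralateral muscles and at 69.8, 96.6 and 46.9 in the trained muscles (log2 0.43 ± 0.26, adjusted p = 0.37), with the muscles of animal 3 in the opposite order. Myc, a factor that drives ribosome production, rose from 0.386, 1.30 and 1.16 to 3.23, 5.93 and 4.25 (log2 1.5 ± 0.18, adjusted p = 0.00047), while its partner Max was at log2 -0.34 ± 0.14 (adjusted p = 0.16). Nr4a1 and Csrnp1 rose by 1.92 and 2.47 on the log2 scale. Members near 0 were Dusp1, at log2 0.01, and Klf10, at log2 0.17. The count of rising members was 12, 11 and 13 without animals 1, 2 and 3.

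Muscle that moves under load also makes proteins that protect and repair the sarcomere. Of 20 tested cytosolic chaperones, 8 rose, 0 fell and 12 did not pass (median log2 fold change 0.46). Beside Hspa1b, these were small heat shock proteins of the Z-disc and cytosol and co-chaperones of the 70-kDa class. Hspb7 rose from 166, 94.8 and 91.1 to 503, 785 and 568 (log2 2.42 ± 0.28), and Hspb6 from 627, 476 and 433 to 1454, 1990 and 1138 (log2 1.55 ± 0.19). Cryab, a small heat shock protein that binds desmin and titin, rose by log2 1.12 ± 0.24. The constitutive Hsp90ab1 was at log2 -0.31 ± 0.13 and did not pass (adjusted p = 0.17), whereas its inducible relative Hsp90aa1 rose from 48.0, 62.0 and 40.8 to 89.6, 117 and 79.7 (log2 0.91 ± 0.18). Endoplasmic reticulum folding genes gave few calls, with 2 rising, 2 falling and 18 of 22 not passing. Over all genes tested, 5.25% were called higher and 3.20% lower. Ddit3 and Edem1 rose by 1.06 and 0.67, and Atf4 and Dnajc3 fell by 0.51 and 0.55 on the log2 scale. All 4 of these lost their call whichever animal was left out. The chaperone count was 6, 4 and 4 without animals 1, 2 and 3.

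Stretch-responsive ankyrin repeat, LIM and Z-disc repair proteins held 7 rising, 0 falling and 10 members that did not pass, of 17 tested, with a median log2 fold change of 0.64. Xirp1, which is recruited to damaged myofibrils, rose from 35.6, 35.6 and 34.6 to 335, 474 and 250 (log2 3.24 ± 0.24, adjusted p = 4.1e-05). Csrp3, the muscle LIM protein, rose from 101, 53.8 and 50.2 to 368, 979 and 512 (log2 3.11 ± 0.41). Mustn1 and Fhl1, both found in growing muscle, rose by log2 2.69 ± 0.24 and 1.96 ± 0.15. Fhl1 reached 1883, 2809 and 2085 from 576, 617 and 529. Ankrd1, a titin-binding ankyrin repeat protein, was at 8.69, 16.6 and 30.3 in the contralateral and 44.8, 56.1 and 60.1 in the trained muscles (log2 1.63 ± 0.41, adjusted p = 0.034). The Ankrd1 call was lost without animals 1, 2 and 3 (adjusted p = 0.16, 0.14 and 0.061). The sarcomere scaffolds Ldb3 and Ankrd23 did not pass, at log2 0.21 and -0.04. Of 28 tested integrin, focal adhesion and dystrophin complex genes, 5 rose and 0 fell, beside 5.25% called higher over all genes tested. Among the 5 were the fibronectin receptor subunit Itga5 (log2 1.16 ± 0.19) and the linker Vcl (log2 1.11 ± 0.13). Vcl was at 13.6, 18.8 and 17.7 against 34.9, 37.2 and 38.9, a gap wider than the spread within either side. Without animals 1, 2 and 3 the stretch-responsive genes held 6, 4 and 4 rising members and the adhesion genes 3, 2 and 2.

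**Figure D2:**
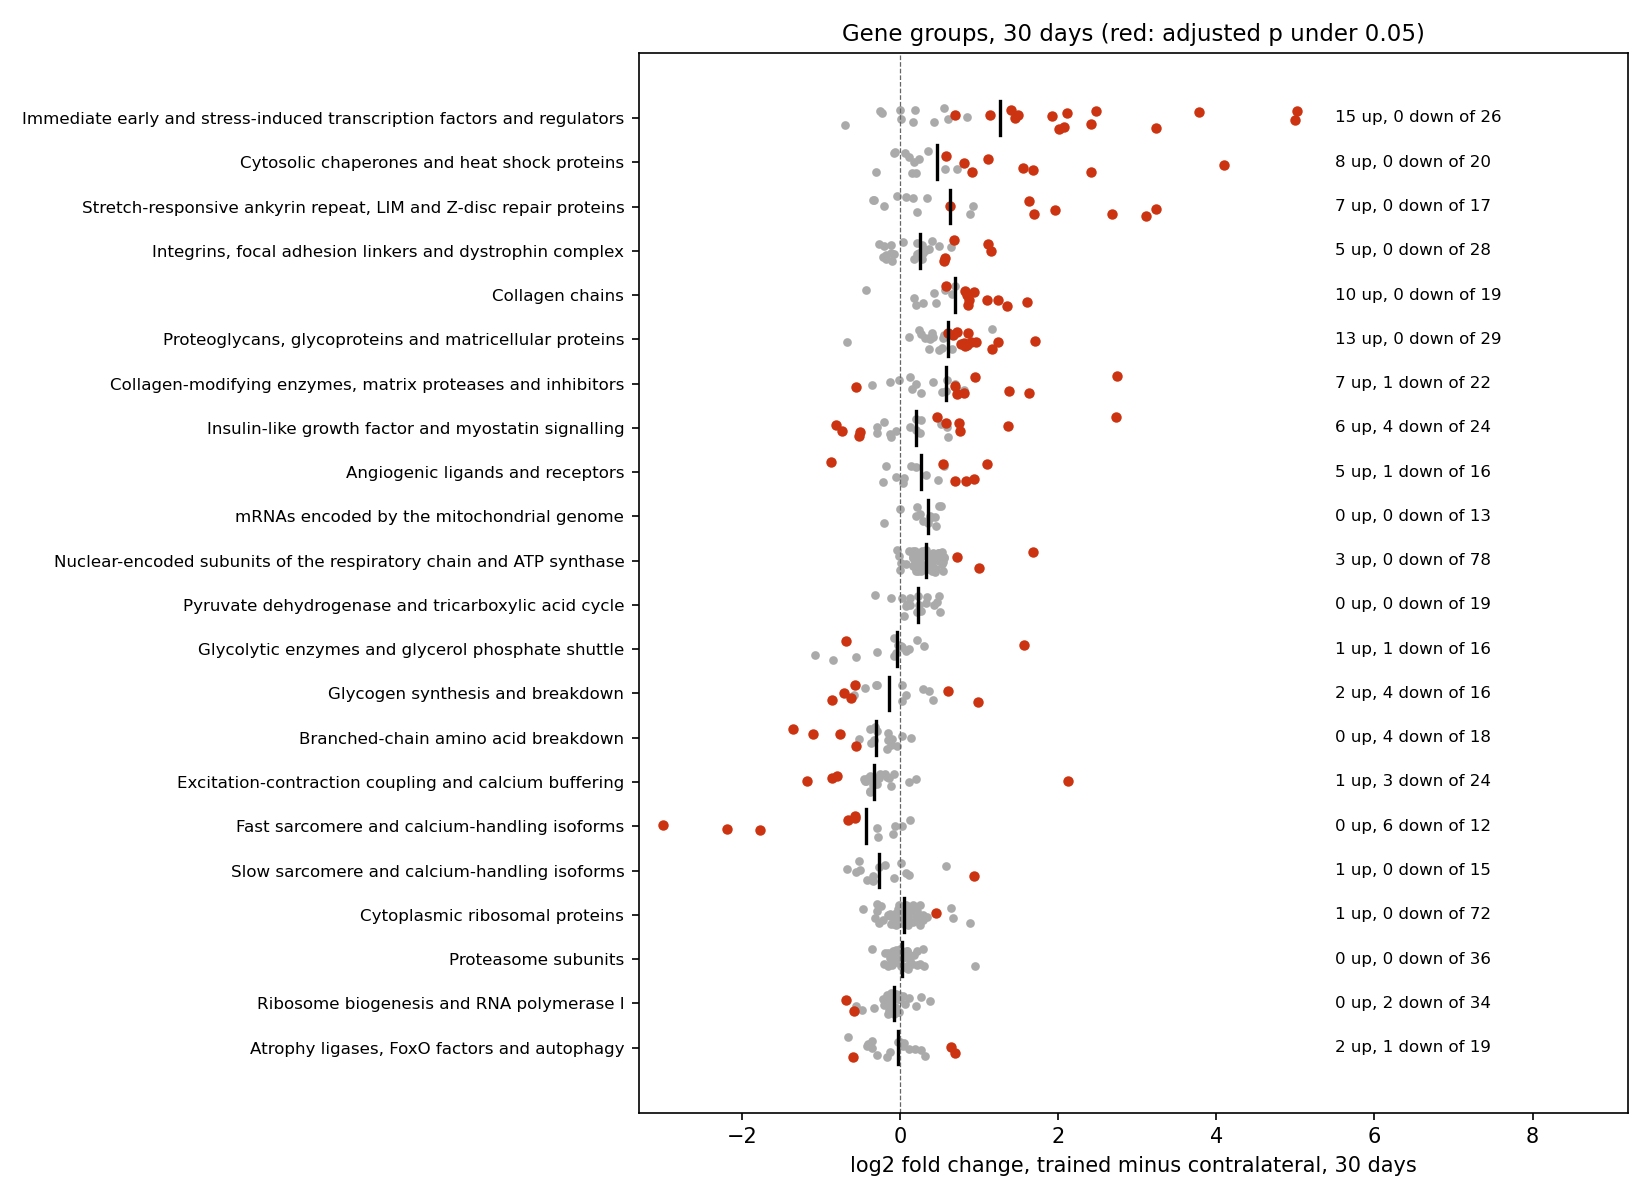
Log2 fold change of trained against contralateral muscle after 30 days (horizontal axis) for the tested members of 22 gene groups (rows), 1 transcript per gene. Red points passed an adjusted p of 0.05, grey points did not, and the black bar is the group's median; calls upwards gather in the immediate early, chaperone, stretch and matrix groups, calls downwards are most numerous in the fast sarcomere (6), glycogen (4), branched-chain amino acid (4) and growth factor (4) groups, and the respiratory chain lies to the right of 0 with 3 of 78 called.

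The largest fall of all was in the fast myosin Myh4. The deposited table gives the symbol Myh4 to 6 transcripts on chromosome 10 of rn6, all on the plus strand, and has no transcript under the symbols Myh1 or Myh2. Myh4-201 starts at 53713938, Myh4-202 at 53740841 and Myh4-203 at 53778662. They lie between Myh3-201, which starts at 53621375, and Myh8-201, which starts at 53818818, and RefSeq's current rat assembly (GRCr8) lists Myh2, Myh1 and Myh4 in this interval. The transcripts are therefore named here as in the table, and which fast myosin the first and second of them encode was not tested. Myh4-203 stood at 4974, 5536 and 5798 in the contralateral muscles and at 31.4, 36.6 and 289 in the trained muscles (log2 -6.26 ± 0.53, adjusted p = 6.1e-05). The trained muscle of animal 3 kept more of it than those of animals 1 and 2, yet all were far under the contralateral range. Myh4-204, which overlaps it and may share its reads, moved alike (log2 -6.34 ± 0.51). Myh4-202 was higher in every trained muscle, at 10412, 9357 and 10332 against 7236, 6363 and 6294, but missed the threshold (log2 0.60 ± 0.18, adjusted p = 0.067). Myh4-201 was at log2 0.17 ± 0.27 and the slow myosin Myh7-201 at log2 -0.67 ± 0.22, and neither passed (adjusted p = 0.76 and 0.093).

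As a share of Myh4-201, Myh4-202, Myh4-203, Myh4-204 and Myh7-201 together, Myh4-203 with Myh4-204 made up 45.2%, 53.1% and 54.5% of the contralateral muscles and 0.396%, 0.496% and 3.55% of the trained muscles. Myh4-202 took 44.3%, 40.1% and 39.98% on the contralateral side and 89.9%, 87.5% and 86.4% on the trained side. Every pair moved the same way, and with 3 pairs the two-sided exact permutation p cannot go under the 0.25 it reached. The contralateral muscles of this time point were themselves lower in Myh4-203 with Myh4-204 than those of the other time points, where that share lay between 59.7% and 74.8%, and higher in Myh4-202, which lay between 16.98% and 32.5% there. Whether the untrained limb changed over 30 days or these animals differed was not tested.

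**Figure D3:**
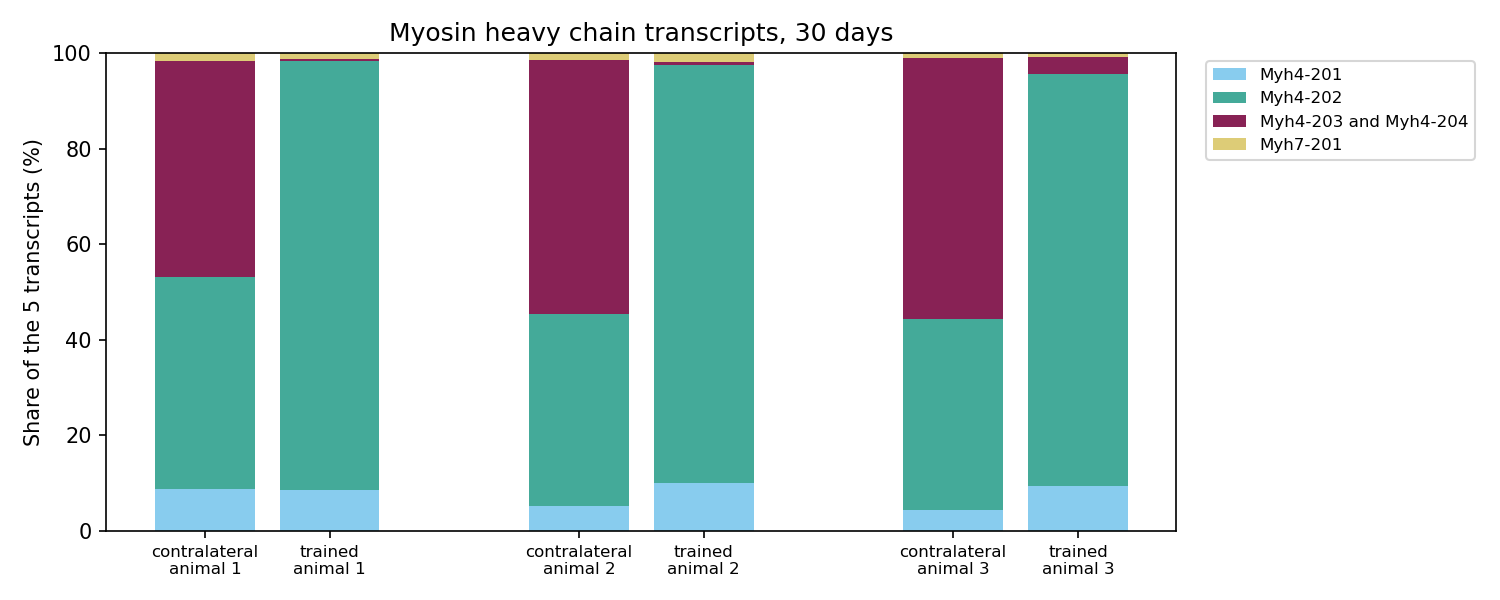
Share of 5 myosin heavy chain transcripts (vertical axis, percent of their summed rescaled TPM) in each of the 6 muscles of the 30-day animals, named as in the deposited table. In each animal Myh4-203 with Myh4-204 fills 45.2% to 54.5% of the contralateral bar and at most 3.55% of the trained bar, where Myh4-202 takes 86.4% to 89.9%.

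Other fast-fibre genes fell with Myh4. Of 12 tested fast sarcomere and calcium-handling genes, 0 rose, 6 fell and 6 did not pass (median log2 fold change -0.43). Pvalb, the calcium buffer of the fastest fibres, dropped from 1928, 2124 and 2079 to 356, 124 and 379 (log2 -2.99 ± 0.34, adjusted p = 0.00035). Actn3, the Z-disc actinin of fast fibres, went from 3945, 3155 and 3661 to 986, 431 and 1132 (log2 -2.19 ± 0.21), while Actn2, the actinin of all fibres, rose from 797, 514 and 520 to 1004, 1310 and 1154 (log2 0.94 ± 0.19, adjusted p = 0.011). Mylk2, the kinase of the fast regulatory light chain, was at 327, 332 and 451 against 119, 95.6 and 105 (log2 -1.78 ± 0.14). Casq1, the fast calsequestrin, and Mybpc2, a myosin-binding protein, fell by 0.56 and 0.66 on the log2 scale. The fast light chain Mylpf and troponin C (Tnnc2) did not pass, at log2 0.13 and -0.29. The list of slow isoforms held 1 call in 15 (median log2 fold change -0.26), that of Actn2, which is not confined to slow fibres. The Actn2 call was lost without animals 2 and 3 (adjusted p = 0.10 and 0.085). Developmental isoforms showed 0 of 6, with Myh3-201 at log2 0.13 ± 0.47 and Actc1 at 0.60 ± 0.45. Without animals 1, 2 and 3 the falling fast-fibre genes numbered 4, 3 and 3.

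Troponin T of fast fibres, Tnnt3, changed by transcript. Tnnt3-206 fell from 944, 1770 and 1148 to 43.5, 93.6 and 254 (log2 -3.60 ± 0.38, adjusted p = 0.00024), and Tnnt3-201 from 556, 977 and 649 to 23, 56.1 and 150 (log2 -3.58 ± 0.39). The 4 other transcripts of the gene lay between log2 -0.09 and -0.08 and did not pass. The summed level of all 6 was 14785, 13816 and 11446 in the contralateral and 9758, 11515 and 11142 in the trained muscles, and these ranges overlapped. Reads shared between transcripts of 1 gene are divided by estimation, so the levels of single transcripts are less certain than their sum. The other large falls were spread over function: Atp1b2, a sodium pump subunit, went from 130, 140 and 145 to 24.1, 21.4 and 30.7 (log2 -2.42 ± 0.19), and Prkag3, the AMP-activated kinase subunit of fast glycolytic fibres, from 27.8, 24 and 40.2 to 7.05, 7.71 and 8.81 (log2 -1.81 ± 0.13). Tpx2, Lmod1, Mafa, Sema7a and Cib2 completed the 12 largest falls, from log2 -2.19 to -1.48. With 1 animal left out, all but Mafa and Sema7a kept their call. Mafa was lost without animal 3 (adjusted p = 0.060) and Sema7a without animals 2 and 3 (adjusted p = 0.074 and 0.10).

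RefSeq promoter windows, 250 bases before to 50 after the start in GRCr8, were listed for 3 of the 12 rising and 7 of the 12 falling leaders, and for 152 of the 203 named genes. Ciart, Xirp1 and Myh4 are shown, each 5′ to 3′ on its gene's strand and without transcribed bases. They hold a known factor motif and stand for the clock, repair and myosin changes. Capitals mark CACGTG, the E-box of the clock factors, in Ciart (chr2:186112247-186112496, minus strand), TGANTCA, the AP-1 motif, in Xirp1 (chr8:128635012-128635261, minus strand) and the CArG box of serum response factor in Myh4 (chr10:52421898-52422147, plus strand).
Ciart: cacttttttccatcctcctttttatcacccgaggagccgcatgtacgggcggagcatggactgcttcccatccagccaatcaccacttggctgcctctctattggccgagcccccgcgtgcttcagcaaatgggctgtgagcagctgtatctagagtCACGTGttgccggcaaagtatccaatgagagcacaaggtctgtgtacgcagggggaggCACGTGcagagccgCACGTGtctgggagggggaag
Xirp1: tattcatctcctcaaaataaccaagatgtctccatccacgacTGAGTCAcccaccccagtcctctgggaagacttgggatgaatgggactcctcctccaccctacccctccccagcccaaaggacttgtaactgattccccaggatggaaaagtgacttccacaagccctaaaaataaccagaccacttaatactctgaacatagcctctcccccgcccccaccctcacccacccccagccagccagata
Myh4: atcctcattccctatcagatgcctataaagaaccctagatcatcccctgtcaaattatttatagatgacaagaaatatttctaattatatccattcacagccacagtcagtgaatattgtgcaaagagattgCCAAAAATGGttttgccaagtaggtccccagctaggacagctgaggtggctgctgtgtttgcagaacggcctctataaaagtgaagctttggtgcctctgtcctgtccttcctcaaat
The E-boxes of Ciart begin 93, 35 and 21 bases before the start. Egr1, a rising leader whose window is not shown, held 2 CArG boxes. Searched on both strands of the whole window, CACGTG was found in 9.83% of 8106 promoters of genes tested, in 8.03% of 436 promoters of genes that rose and in 11.8% of 289 promoters of genes that fell. TGANTCA was found in 4.68% of tested, 6.65% of rising and 3.11% of falling promoters, and the CArG box in 1.3%, 2.52% and 1.04%. TGACGTCA, the cAMP response element, was in 3.15%, 2.98% and 2.42%, and GAANNTTC, a heat shock element, in 5.34%, 5.73% and 3.11%. Over all 27457 RefSeq promoters the shares of these 5 motifs, in the same order, were 6.65%, 7.33%, 1.64%, 1.91% and 8.34%. A match describes letters and not a bound site, and the motifs were chosen with the results known.

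Ciart, a repressor of the circadian clock, rose from 0.743, 0.252 and 0.311 to 16.3, 14.5 and 9.42 (log2 3.31 ± 0.31, adjusted p = 0.00012). It was the only riser among 19 tested clock and clock output genes, where 5.25% of all genes tested were called higher and 3.20% lower. Hlf, a clock output factor, fell from 2.89, 2.82 and 3.23 to 0.842, 0.713 and 1.04 (log2 -1.10 ± 0.21), a call lost without animals 2 and 3 (adjusted p = 0.063 and 0.051). The core genes Arntl, Per1 and Per2 did not pass, at log2 -0.53, 0.19 and 0.50. Both muscles of an animal were taken at the same time, so time of day is shared within each pair.

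Calls among genes of the extracellular matrix were nearly all upwards. Of 19 tested collagen chains, 10 rose, 0 fell and 9 did not pass (median log2 fold change 0.70), and 21 further collagen genes were too low to test. Col3a1, the fibrillar collagen of reticular fibres, rose from 43.6, 64.5 and 56.5 to 142, 191 and 171 (log2 1.6 ± 0.19, adjusted p = 0.00054), and Col4a1, a chain of the basement membrane, from 16.3, 16.3 and 15.8 to 51.4, 39.8 and 38.3 (log2 1.36 ± 0.16). Col1a1 was at 30.1, 39.2 and 25.1 against 72.4, 70.8 and 81.4 (log2 1.24 ± 0.35) and stood at the threshold (adjusted p = 0.050), with its call lost whichever animal was left out. Of 29 proteoglycans, glycoproteins and matricellular proteins, 13 rose and 0 fell (median 0.60). Bgn, a small proteoglycan, rose from 9.01, 5.31 and 5.0 to 20.7, 23.3 and 24.4 (log2 1.71 ± 0.21), and Sparc, a collagen-binding glycoprotein, from 216, 195 and 145 to 423, 411 and 395 (log2 1.16 ± 0.14). Among 22 enzymes, proteases and inhibitors of the matrix, 7 rose and 1 fell. P4ha1, a collagen prolyl hydroxylase, was the 1 that fell (log2 -0.56), and the collagen chaperone Serpinh1 did not pass (log2 0.59 ± 0.19, adjusted p = 0.081). Without animals 1, 2 and 3, 4, 4 and 7 collagens and 5, 6 and 6 matrix proteins were called higher. The enzymes, proteases and inhibitors called higher numbered 2, 6 and 3, and the fall of P4ha1 was lost in each case. On the values as deposited, 3 collagens and 4 matrix proteins passed, and 2 of the enzyme list rose and 1 fell.

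Markers of other cell types moved in the same muscles. Of 14 macrophage markers, 13 rose and 0 fell (median log2 fold change 1.14), and their summed level was 27.3 to 45.1 in the contralateral and 90.9 to 125 in the trained muscles. Lyz2, a lysozyme of macrophages, went from 11, 16.2 and 18.5 to 39.7, 48.2 and 41.9 (log2 1.47 ± 0.21), and C1qa, a complement subunit they make, from 2.01, 5.81 and 3.68 to 10.1, 12.9 and 10.3 (log2 1.40 ± 0.22). Cd68, listed at 0 in the contralateral muscle of animal 1 and at 1.01 and 0.533 in the others, reached 3.21, 5.0 and 3.40. Of 7 tested MHC class II markers 5 rose, and of 8 fibroblast markers 5 rose, with fibroblast sums of 134 to 170 against 268 to 305. Col1a1 is both a collagen and a fibroblast marker here. Adipocyte sums were 89.1 to 121 against 166 to 217, with 2 of 5 tested members called. Summed endothelial markers did not overlap either, at 48.1 to 59.3 against 63.9 to 88.6, with 0 of 9 members called. Taken singly, 3 of the 9 did not overlap, beside 25.7% of all transcripts tested. The Schwann, tendon and erythroid lists had 0 calls each. Lymphocyte and neutrophil markers were near 0, with sums of at most 2.07, and none was high enough to test. In whole muscle, more cells of a type and more RNA per cell cannot be told apart, and the part of these cells in the rise of the matrix genes was not tested. The number of macrophage markers called higher was 8, 5 and 6 without animals 1, 2 and 3, and that of fibroblast markers 2, 2 and 1. The MHC class II count was 1, 4 and 4, and 0 on the values as deposited or without the replicate block in 8 groups, and the adipocyte count was 1, 0 and 0.

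**Figure D4:**
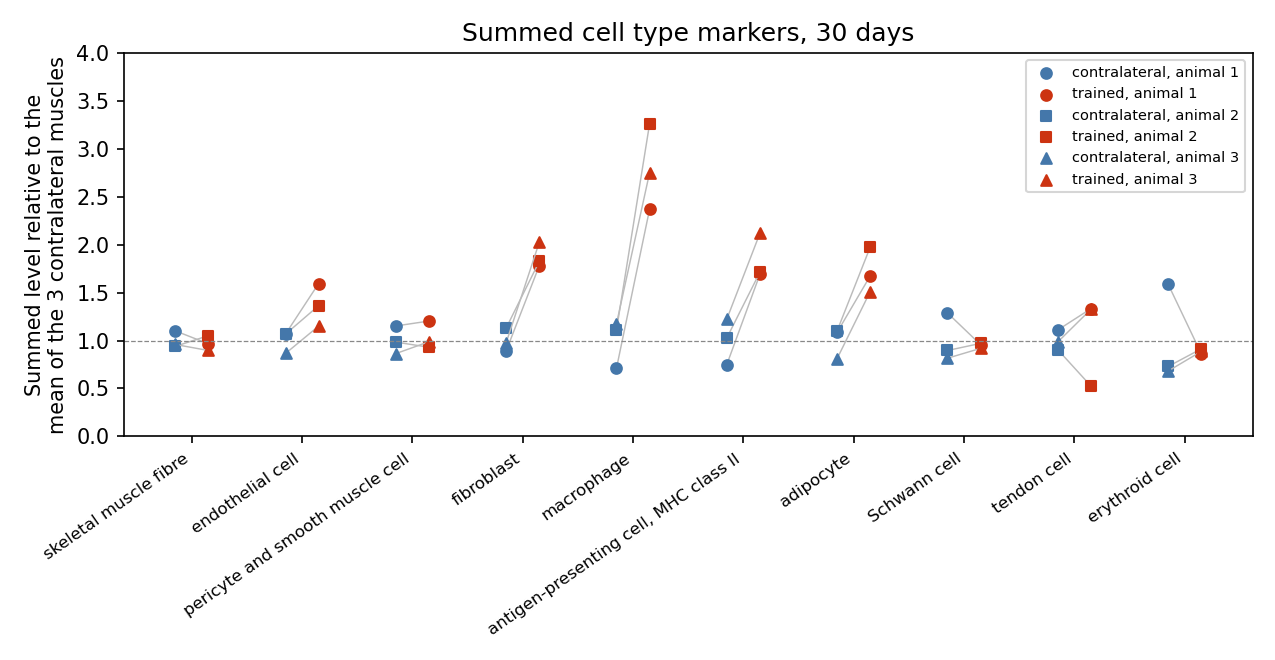
Summed rescaled TPM of cell type marker lists in each muscle, divided by the mean of the 3 contralateral muscles (vertical axis, linear); blue symbols are contralateral and red symbols trained muscles, joined by animal, with 1 shape per animal. Macrophage, MHC class II, fibroblast, adipocyte and endothelial sums lie above the contralateral range in all 3 trained muscles, while muscle fibre, Schwann, tendon and mural sums overlap.

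Nuclear genes of the respiratory chain and ATP synthase lay above 0 with few calls. Over all genes tested, 48.8% had a fold change above 0 and 5.25% were called higher. Of the 78 genes of this list, 76 had a fold change above 0. Here 3 rose, 0 fell and 75 did not pass, with a median of 0.33 on the log2 scale. Those called were Cox7a1, from 0.909, 1.08 and 1.40 to 3.42, 7.38 and 7.61 (log2 1.69 ± 0.17), Cox6a1, from 27.7, 24.8 and 26.7 to 55.0, 58.1 and 48.1 (log2 0.99 ± 0.14), and Ndufb9 (log2 0.72 ± 0.20), which was lost without animals 2 and 3 (adjusted p = 0.20 and 0.25). Messenger RNAs encoded by mitochondria showed 0 calls in 13 (median 0.35). Mt-co1, a core subunit of complex IV, was at 68896, 42479 and 30924 in the contralateral and 54461, 68698 and 68111 in the trained muscles (log2 0.50 ± 0.23, adjusted p = 0.22), and it was lower in the trained muscle of animal 1 only. Without animal 1, whose contralateral library stands apart, 4 of the 13 passed and their median was 0.64. The citric acid cycle and fatty acid lists had 0 calls in 19 and 25 (medians 0.23 and 0.11). Ppargc1a, the coactivator of mitochondrial biogenesis, rose from 4.24, 3.20 and 3.38 to 10.5, 7.68 and 11.5 (log2 1.23 ± 0.22, adjusted p = 0.007, and 0.061 without animal 3), and Perm1, a muscle partner of it, by log2 0.65 ± 0.17, a call lost whichever animal was left out. The pooling of all 12 contralateral muscles as the control gave 36 calls upwards in the respiratory chain and 11 among the mitochondrial messenger RNAs.

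Carbohydrate and amino acid genes moved in both directions. Hk2, the inducible hexokinase of muscle, rose from 24.1, 24.8 and 22.4 to 78.4, 68.7 and 70.1 (log2 1.57 ± 0.16, adjusted p = 0.00017), while Gpd2, of the glycerol phosphate shuttle, fell by 0.68 and the other 14 of 16 glycolytic genes did not pass, among them the abundant Aldoa (log2 0.03) and Eno3 (log2 0.08). In glycogen metabolism, 2 of 16 genes rose and 4 fell, beside 5.25% called higher and 3.20% called lower over all genes tested. The branching enzyme Gbe1 rose by log2 0.99 ± 0.17 and the glucose donor enzyme Ugp2 by 0.61, both on the side of synthesis. Phosphorylase, Pygm, fell from 4045, 3643 and 4213 to 2682, 2404 and 2644 (log2 -0.62 ± 0.13, adjusted p = 0.014), and the kinase subunits that switch it on, Phkg1, Phka1 and Phkb, fell by 0.70, 0.57 and 0.86. The Pygm call was lost without animals 1, 2 and 3 (adjusted p = 0.055, 0.072 and 0.078). Its trained and contralateral values did not overlap, which held for 25.7% of all transcripts tested. Phkb was lost whichever animal was left out and Phkg1 without animals 2 and 3 (adjusted p = 0.12 and 0.15). Without animals 1, 2 and 3 the list held 1, 1 and 1 rising and 1, 0 and 0 falling genes, and Gbe1 kept its call in each case. Of 18 tested branched-chain amino acid genes, 4 fell and 0 rose (median -0.30). Bcat2, the mitochondrial transaminase that starts their breakdown, fell from 27.2, 36.0 and 44.5 to 14.9, 14.7 and 10.3 (log2 -1.36 ± 0.22), and it was called without each animal in turn.

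Signals of growth were mixed. Of 24 tested insulin-like growth factor and myostatin signalling genes, 6 rose and 4 fell. Irs2, an adaptor of the insulin receptor, rose from 4.34, 4.21 and 4.38 to 34.1, 39.9 and 29.9 (log2 2.74 ± 0.25, adjusted p = 0.0001), and Igfbp6, which binds insulin-like growth factor 2, by log2 1.37 ± 0.24. Mstn, the growth inhibitor myostatin, fell from 3.39, 5.26 and 4.67 to 2.09, 2.61 and 1.61 (log2 -0.81 ± 0.15, adjusted p = 0.0095), and it lost its call without animals 2 and 3 (adjusted p = 0.058 and 0.082). Acvr1b, Acvr2a and Smad3, receptors and a mediator of the same pathway, fell by 0.74, 0.51 and 0.51. Without animals 1, 2 and 3 the rising members numbered 3, 2 and 2 and the falling members 2, 0 and 0, so that no fall of this list kept its call without animal 2 or 3. Igf1 did not pass (log2 0.52 ± 0.19, adjusted p = 0.12). Among angiogenic ligands and receptors, 5 of 16 rose and 1 fell. Vegfa, the main angiogenic ligand, rose from 49.0, 57.3 and 65.9 to 129, 125 and 115 (log2 1.10 ± 0.17), and Hif1a, its oxygen-sensing regulator, from 3.51, 4.41 and 3.46 to 7.75, 7.67 and 8.92 (log2 0.93 ± 0.13), both called without each animal in turn, while the rising members of the list numbered 2, 2 and 3 and the falling ones 0, 1 and 0. In a limma fit of the 6 muscles of 30 days alone, neither Vegfa nor Hif1a passed (adjusted p = 0.059 and 0.068).

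Ribosomal protein and proteasome genes gave few calls, where 5.25% of all genes tested were called higher and 3.20% lower. Cytoplasmic ribosomal proteins had 1 call in 72 (median 0.05), mitochondrial ribosomal proteins 1 in 73, proteasome subunits 0 in 36 (median 0.02), and ribosome biogenesis genes 0 rising and 2 falling of 34 (median -0.07). Of 19 atrophy and autophagy genes, 2 rose and 1 fell. Trim63, the ubiquitin ligase of sarcomere proteins, was at 90.0, 85.4 and 107 against 186, 142 and 136 (log2 0.70 ± 0.14), and the related ligase Fbxo32 at log2 -0.16 ± 0.19. The Trim63 call was lost without animals 1 and 2 (adjusted p = 0.090 and 0.079). Myogenic factors showed 1 call in 15, that of the syndecan Sdc4 (log2 1.49 ± 0.26), with Myod1 at log2 -0.45 ± 0.29 and Myog at -0.21 ± 0.46. Among excitation-contraction genes, Rcan1, an inhibitor made when calcineurin is active, rose from 21.9, 27.6 and 26.6 to 108, 174 and 78.0 (log2 2.13 ± 0.22), and the junctophilins Jph1 and Jph2 fell by 0.86 and 1.17. The Jph2 call was lost without animals 2 and 3 (adjusted p = 0.065 and 0.11), and the 3 falls of this list became 3, 1 and 2 without animals 1, 2 and 3.

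The question of whether the response at 30 days differed from that at earlier times was put as a difference of paired effects within the same limma fit. Against 2 days, 135 transcripts (1.00%) passed, 54 with a higher and 81 with a lower effect at 30 days. Against 10 days 6 passed (0.0446%), and against 20 days 0 passed (0%), with 630 of 13452 at an unadjusted p under 0.05. That is no more than the share of 0.05 awaited if no transcript differed. Among the named genes Ankrd1 gave the largest difference. Its effect was 6.79, 7.83 and 7.83 on the log2 scale in the 3 animals of 2 days and 2.24, 1.70 and 0.96 in those of 30 days, a difference of -5.85 ± 0.58 (adjusted p = 0.0025). Tubb6, a tubulin, had a mean effect of 4.11 at 2 days and 0.65 at 30 days (difference -3.46 ± 0.41), and Rrad, a small GTPase, 3.78 and 0.15 (difference -3.63 ± 0.61). Neither of these passed the test at 30 days itself (adjusted p = 0.21 and 0.87). Mstn changed sides, with a mean effect of 0.63 at 2 days and -0.81 at 30 days (difference -1.43 ± 0.22, adjusted p = 0.019). Cox7a1 and Perm1 did so in the other direction, from -0.71 to 1.69 (difference 2.39 ± 0.25) and from -0.53 to 0.65 (difference 1.17 ± 0.24). Myh4-203 had fallen by 0.73 at 2 days and by 6.26 at 30 days (difference -5.53 ± 0.74, adjusted p = 0.0087). The leading immediate early genes gave no call in this contrast: Atf3 had mean effects of 5.26 and 5.02, and Egr1 of 4.59 and 3.78. Leaving out 1 animal of 30 days at a time lowered the 135 to between 19 and 26, and no animal of 2 days was left out.

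**Figure D5:**
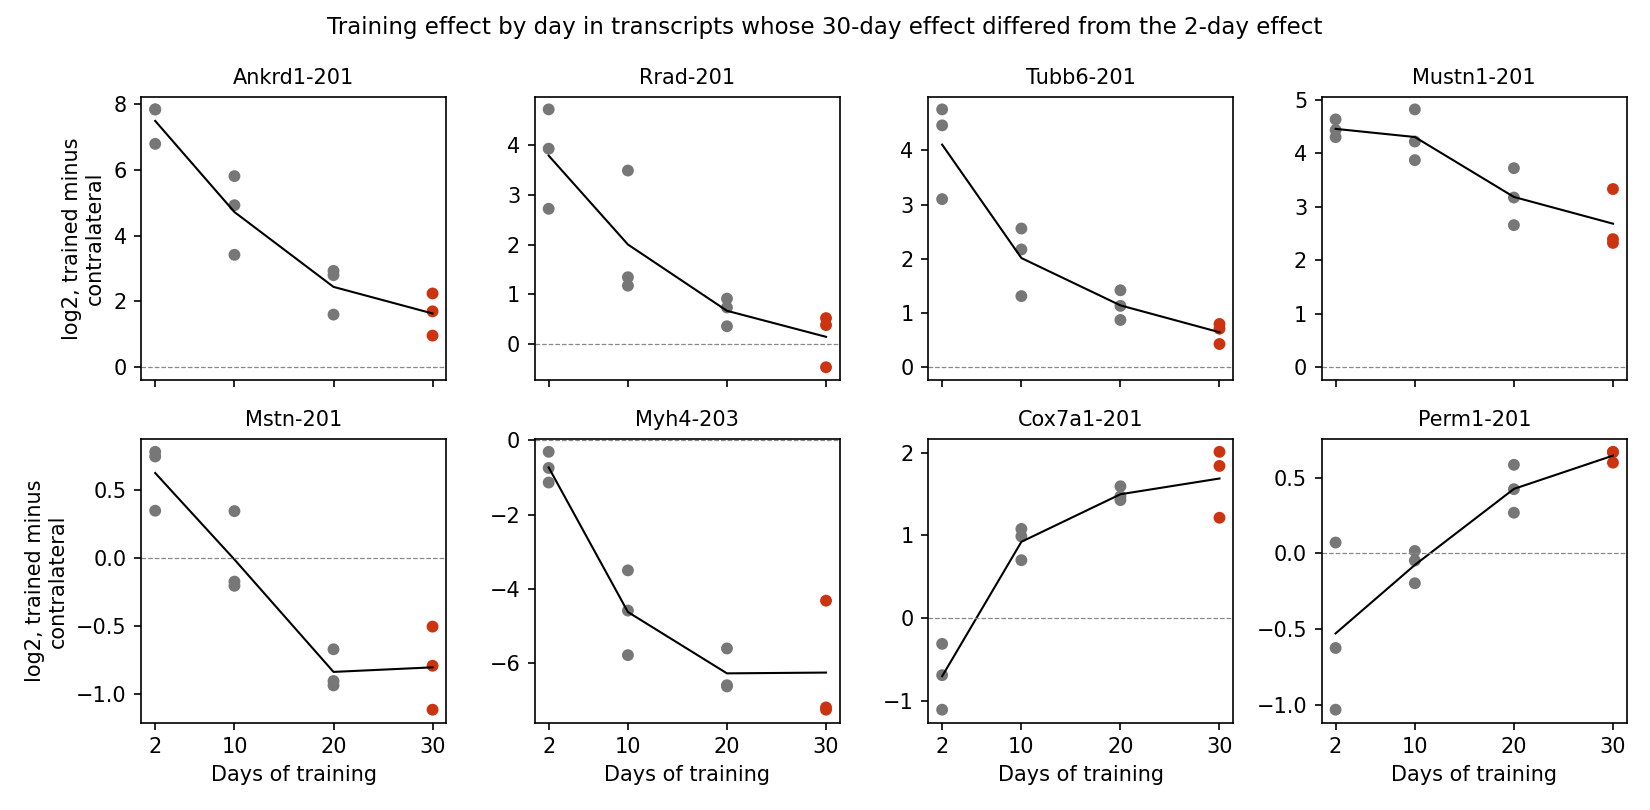
Log2 difference between trained and contralateral muscle (vertical axes, a separate scale in each panel) against days of training (horizontal axes) for 8 transcripts whose 30-day effect differed from the 2-day effect; points are single animals, red at 30 days and grey at earlier times, and lines join the means. Ankrd1, Rrad, Tubb6 and Mustn1 decline from 2 to 30 days, Mstn crosses 0 downwards, Myh4-203 falls to between -4.32 and -7.26, and Cox7a1 and Perm1 cross 0 upwards.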

How the data were processed

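RNA from 24 tibialis anterior muscles of 12 rats was sequenced as poly-A libraries (150 bp paired ends) by the authors, and the 6 muscles of the 30-day animals are reported here. Per the labels and methods, the authors trimmed the reads, aligned them with STAR in Partek Flow to rn6 and quantified Ensembl transcripts. The deposited TPM-type values are scaled for transcript length and to 1 total per sample. They are not counts, although DESeq2 is named in the submitters' processing notes, so no count model was fitted and depth is unknown. The authors' own p-values, FDR, ratios and fold changes of trained against control at gene level were not used.

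Values of 20027 transcripts were divided by median-of-ratios factors, and 13452 with at least 1 in at least 3 muscles were kept. A linear model of log2(value + 1) over all 24 muscles (limma 3.58.1, R 4.3.3) had animal (12 levels) and 4 training effects as terms, which left 8 residual degrees of freedom. Adjustment followed Benjamini and Hochberg, with a threshold of 0.05. The pairing comes from the animal numbers of the libraries: deviations from group means correlated with a median of 0.133 within 12 animals and -0.0078 between others, and 0.017, 0.154 and 0.054 in the 30-day animals. None of 276 pairs of libraries was identical. Single values were tested by exact permutation of the pairs. The limma p-values rest on a spread estimated over all 12 animals, not on the 3 pairs of 30 days alone.

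Named genes were the 12 largest rises and falls with a mean of at least 10 and no overlap, up to 4 called and 2 uncalled members of each of 44 gene lists, the myosins, Myc, Max, Pygm and Phkg1, and up to 6 genes per difference between times. Not all are given in the text, some results are not reported here, and list members named beside these were chosen after their values were seen. A list holds 1 transcript per gene, that with the highest mean. The comparison, the lists and the motifs were chosen with earlier results of these data known. On simulated data for the 30-day comparison (13452 transcripts, 20 draws, 200 changed), 70.2% of changes of 1 and 94.8% of changes of 2 on the log2 scale were recovered, and 4.96% of calls were false. The simulation drew independent normal noise with each transcript's spread over all 24 muscles and refitted the same model. Its false share therefore follows largely from the threshold. It checks that the model runs as intended and does not measure the error or power of the calls reported here. Alternatives covered scaling, pseudocount, filters, the threshold, the model, sums per gene and leaving out animals of 30 days. Tables and plots used Python 3.11.15 and matplotlib 3.10.9.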

Additional observations from a re-analysis of the deposited data

Results flagged for a closer look

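The effect of training at 30 days differed from that at an earlier time, by the limma test of the difference, for 23 named transcripts. Against 2 days, the difference of the log2 effects (30 days minus 2 days) was negative for Ankrd1-201 (-5.85), Myh4-203 (-5.53), Myh4-204 (-5.52), RGD1564664-201 (-3.75), Rrad-201 (-3.63), Tubb6-201 (-3.46), Tnnt3-206 (-2.69), Timp1-201 (-2.18), Tpx2-202 (-2.12) and Mustn1-201 (-1.77). It was also negative for Prkag3-201 (-1.46), Mstn-201 (-1.43), Actn3-201 (-1.43), Atp1b2-201 (-1.30), Mylk2-201 (-1.04), Dnajc3-201 (-0.89) and Atf4-201 (-0.83). It was positive for Cox7a1-201 (2.39), Igfbp5-201 (1.31), Perm1-201 (1.17), Adamts9-201 (1.07) and Fabp4-201 (0.96). Igfbp5, a binding protein of insulin-like growth factors, had log2 effects of -1.48, -1.18 and -1.58 at 2 days and of -0.12, -0.21 and 0.00 at 30 days. Timp1, an inhibitor of matrix proteases, had mean effects of 3.13 and 0.95. Against 10 days, Dusp2-201, a phosphatase of kinase signalling, differed by -1.999, with log2 effects of 3.65, 3.77 and 3.05 at 10 days and 1.44, 1.70 and 1.34 at 30 days. These transcripts were picked partly for their size of change, and the causes of the differences were not tested.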

How the results depend on the processing

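The 1041 calls at 30 days became 562 on the values as deposited, 191 with the 6 muscles of 30 days alone, 2156 with 12 pooled controls and no replicate block, 341 at an adjusted p of 0.01, and 363 to 574 with 1 animal left out. The share higher, 61.0%, became 47.5% as deposited, 48.4% with a mean of at least 10, 77.0% with the 6 muscles and 71.3% at 0.01, and lay between 62.2% and 70.9% with 1 animal left out. The 135 differences from 2 days became 44 with a pseudocount of 0.1, 393 with a mean of at least 10, 1533 with pooled controls, 388 with animal as a random effect, 235 with an intensity trend, 314 for sums per gene, 15 at 0.01 and 19 to 26 without 1 animal. The 6 differences from 10 days became 2 with a pseudocount of 0.1 and 2 with no filter, 273 with pooled controls, 12 with animal as a random effect, 0 at 0.01 and 0 to 1 without 1 animal. The 0 differences from 20 days became 3 with pooled controls. Sums per gene reversed Myh4-201, Myh4-202 and Myh4-205 (-0.48), since they add the falling Myh4-203 to them. Without the replicate block, in 8 groups, 949 transcripts were called at 30 days, of which 814 were among the 1041, and 699 when the contralateral muscle of animal 1 was also left out. Pooled controls set the trained muscles against other animals too. Of 112 named transcripts called, 58 kept their call without each animal in turn, 79 as deposited and 53 with the 6 muscles alone, and none changed direction. With the 6 muscles alone, the fibroblast, MHC class II, adipocyte, glycogen and angiogenic lists had 0 calls each. In that fit 11 immediate early genes and 3 macrophage markers were called higher. With 3 pairs and unknown depth, transcripts that did not pass cannot be called unchanged.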

Other observations

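Genes outside the lists were looked through after their values were seen, so these are descriptions of single genes, with no list behind them. Of the proteases known from mast cell granules, Cma1 went from 0.768, 1.09 and 1.35 to 5.46, 8.78 and 4.17, Mcpt1l1 from 4.82, 3.47 and 3.21 to 14.3, 16.8 and 14.5, and Cpa3 from 0.847, 1.01 and 1.17 to 4.75, 5.53 and 5.11, with log2 fold changes of 1.74, 1.75 and 1.61. Gpnmb (log2 2.59 ± 0.23) and Lgals3 (log2 1.96 ± 0.18), both known from phagocytes, rose as well. Ftl1, a ferritin subunit, rose from 48.0, 57.4 and 59.2 to 164, 192 and 132, and the transferrin receptor Tfrc from 36.6, 42.8 and 41.7 to 80.7, 82.0 and 116.

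The transcription factors Maf and Tbx15 were lower. Maf fell from 12.9, 18.1 and 19.2 to 6.28, 6.38 and 7.54 (log2 -1.18 ± 0.16) and Tbx15 from 73.2, 84.6 and 82.4 to 53.4, 51.4 and 51.6 (log2 -0.61 ± 0.11). The chloride channel Clcn1 (log2 -0.66 ± 0.14) and the potassium channel Kcnj11 (log2 -0.82 ± 0.12) fell. Glul, which makes glutamine, went from 267, 280 and 259 to 92.0, 107 and 96.0, and Ampd1, the AMP deaminase of fast muscle, from 296, 310 and 308 to 107, 126 and 141. Atp1b2 and Atp1b1, alternative beta subunits of the sodium pump, moved in opposite directions (log2 -2.42 ± 0.19 and 0.79 ± 0.18).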
